A study of Mus musculus with 10 samples.

Results

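The genes described here are Whrn, which encodes a scaffold protein of stereocilia and photoreceptors, and Cldn10 and Cgnl1, which encode proteins of cell junctions. All were measured in mouse splenic monocytes. They are 3 of the 21946 genes named on the array and are read by 9 of 46237 probes: 2 for Whrn, 4 for Cldn10 and 3 for Cgnl1. The platform annotation gives the symbol for 8 of these, and 1 Cgnl1 probe, listed as 4933421H10Rik, was assigned through its transcript record. The genes were chosen because 1 of their probes differed strongly between the groups and others differed less, so the differences of these probes are given as a description, with no test. A further probe, annotated as C430046P22Rik, a symbol that RefSeq lists as a synonym of Whrn, is shown beside them and not counted among them.

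The series holds 5 samples of TCL1-AT mice and 5 samples of WT mice, all C57BL/6 and aged 3 months. TCL1-AT mice had been transplanted with murine CLL (chronic lymphocytic leukaemia) cells and were studied 6 weeks later. The donor cells come from Eµ-TCL1 animals, in which a TCL1 transgene drives a B cell leukaemia, and WT mice had no intervention. Monocytes were sorted from spleen as Lin- CD11b+ cells with intermediate F4/80, low to intermediate CD11c and low MHC class II. The labels call WT samples pools and give neither the mice per pool nor whether each TCL1-AT sample was 1 mouse, so the spread between samples may be partly technical.

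Whirlin, the product of Whrn, is a PDZ scaffold of the stereocilia of inner ear hair cells and of photoreceptors, where it binds Usher syndrome proteins, and its loss causes deafness. Claudin-10, the product of Cldn10, is a membrane-spanning tight junction protein that forms ion-selective paracellular pores, best known from kidney epithelium. Paracingulin, the product of Cgnl1, sits on the cytoplasmic side of epithelial and endothelial junctions. None of them is a classical monocyte marker.

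Signals are normalized log2 values, on which a difference of 1 is a doubling, and a probe counts as detected on an array at a detection p under 0.05. The median raw intensity was 90.3 to 93.4 on TCL1-AT arrays and 80.4 to 92.1 on WT arrays, where WT 1 alone lay in the TCL1-AT range, and 43.0% to 45.2% of probes were detected on TCL1-AT arrays against 42.9% to 45.3% on WT arrays. Of the genes that define the sort, Itgam, which encodes CD11b, did not pass limma's test (log2 difference -0.19, adjusted p = 0.359), and Adgre1, which encodes F4/80, fell by 0.91 in TCL1-AT. Of the 3 tested Adgre1 probes, 2 were called lower, and the 3 ran from -1.31 to -0.10. Itgax (CD11c) rose by 0.39, and that call was lost when any 1 of several arrays was left out or with median raw intensity as a covariate (adjusted p = 0.38). The monocyte receptor gene Csf1r did not pass (-0.29, limma adjusted p = 0.187), and its other tested probe, also not called, gave 0.22. Cd68, a lysosomal glycoprotein gene, fell by 0.31, a call that the covariate also ended (adjusted p = 0.337). H2-Eb1, a chain of MHC class II, for which the cells were sorted as low, was 13.9-fold higher in TCL1-AT (log2 difference 3.80). It was named because its array profile is among the closest to that of Whrn, not as a planned gene of the sort. Its difference is therefore a description, with no test. All 6 genes were detected on all 10 arrays.

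Of the 9 member probes, 5 were higher in TCL1-AT with no overlap between the groups, 1 was lower with no overlap, and 3 overlapped. Groups did not overlap for 9.44% of all probes and for 19.9% of the 20241 probes that passed the filter on dim signals, of which limma's test called 12.1% higher and 14.8% lower. Since the genes were chosen on this contrast, nothing is read from that count. The filter, detection on at least 5 of the 10 arrays, was passed by 7 of the 9.

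**Figure D1:**
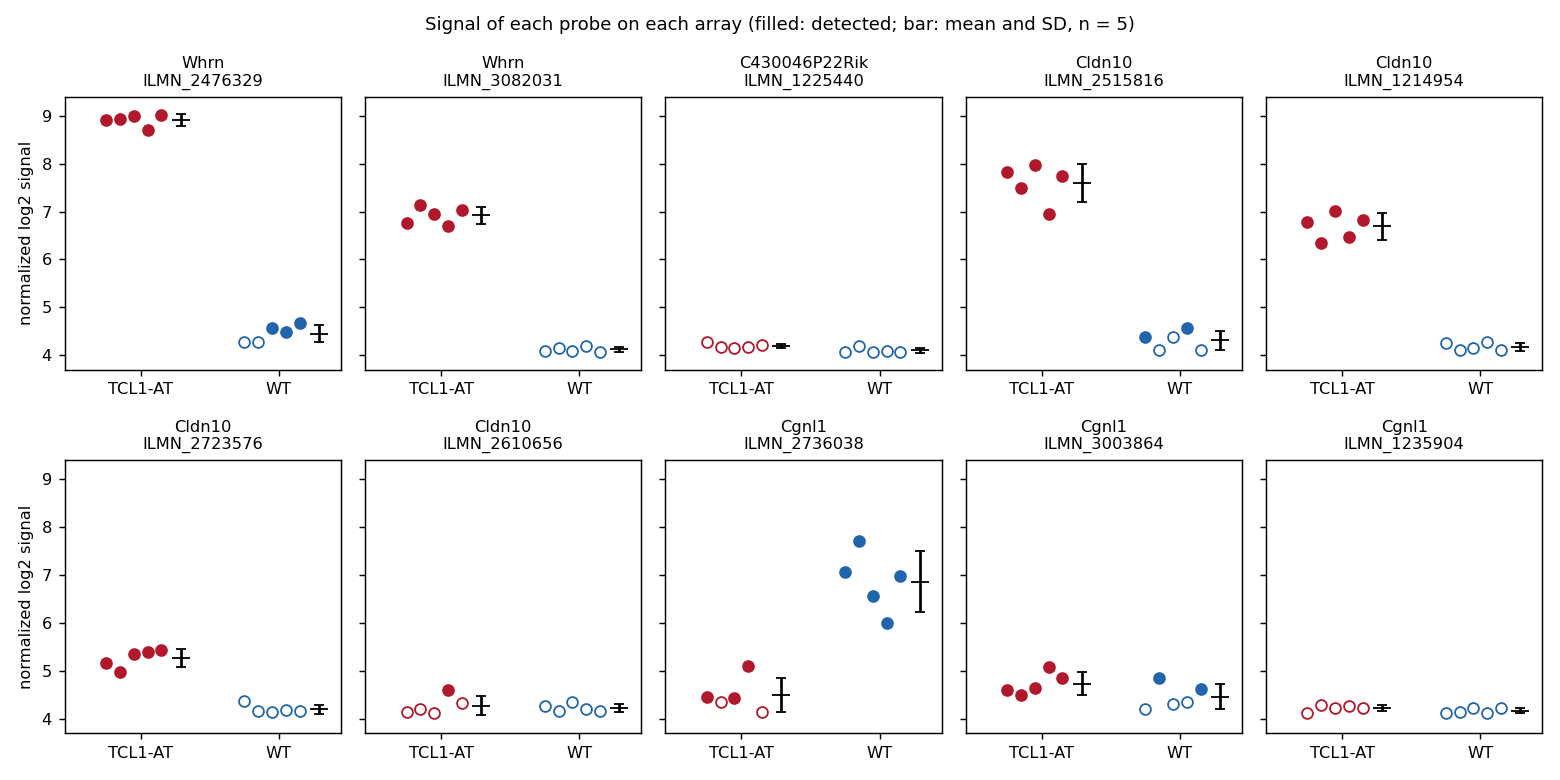
Normalized log2 signal (vertical axis) of the 9 member probes and of the synonym probe C430046P22Rik on each array, TCL1-AT left and WT right. Filled points are detected, open points are not, and the bar is the mean with its SD (n = 5 each). Both Whrn probes lie between 6.70 and 9.01 on TCL1-AT arrays and at 4.67 or below on WT arrays, while Cgnl1 ILMN_2736038 lies the other way.

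Both Whrn probes read well above background in monocytes of leukaemic mice and at or close to background in those of control mice. Probe ILMN_2476329, designed on transcript NM_001008792.1, read 8.91, 8.94, 8.99, 8.71 and 9.01 in TCL1-AT 1 to 5, against 4.27, 4.27, 4.56, 4.49 and 4.67 in WT 1 to 5. All 5 TCL1-AT values lay within 0.30 of each other, and 4.03 separated the lowest of them from the highest WT value. The means were 8.91 ± 0.12 in TCL1-AT and 4.45 ± 0.18 in WT (mean ± SD, n = 5 each), a log2 difference of 4.46, and the probe was detected on 5 TCL1-AT and 3 WT arrays. Before normalization its intensity was 538 ± 63.4 in TCL1-AT and 87.3 ± 3.86 in WT (mean ± SD, n = 5 each).

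The second Whrn probe, ILMN_3082031 on transcript NM_001008795.1, showed the same direction at a lower signal. It read 6.77, 7.14, 6.95, 6.70 and 7.04 in TCL1-AT 1 to 5, against 4.09, 4.16, 4.09, 4.19 and 4.06 in WT 1 to 5. No WT array detected it, so that its log2 difference of 2.80 gives a bound: on the normalized values, the signal of this probe was at least 6.23-fold higher in TCL1-AT. The bound sets the TCL1-AT mean against the higher, on each WT array, of the probe's own signal and the lowest detected signal. Probe C430046P22Rik was detected on no array, at 4.20 ± 0.04 in TCL1-AT and 4.10 ± 0.05 in WT (mean ± SD, n = 5 each). In RNA of sorted cell populations, more transcript per cell and more cells that carry it cannot be told apart.

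Cldn10 was measured by 4 probes on 2 transcripts, and 3 of the probes were higher on every TCL1-AT array than on any WT array. The brightest, ILMN_2515816 on NM_021386.3, read 7.82, 7.50, 7.97, 6.95 and 7.74 in TCL1-AT 1 to 5, against 4.38, 4.10, 4.39, 4.56 and 4.10 in WT 1 to 5. TCL1-AT 4 was the lowest of its group and still stood far above every WT array. The mean was 7.60 ± 0.40 in TCL1-AT and 4.31 ± 0.20 in WT (mean ± SD, n = 5 each), a log2 difference of 3.29, with detection on 5 TCL1-AT and 2 WT arrays.

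A probe on the other transcript, ILMN_1214954 on NM_023878.2, read 6.79, 6.34, 7.01, 6.46 and 6.82 in TCL1-AT 1 to 5, against 4.25, 4.11, 4.14, 4.27 and 4.11 in WT 1 to 5. It was detected on all TCL1-AT arrays and on no WT array, which gives a signal at least 5.29-fold higher in TCL1-AT. The signal of Cldn10 therefore differed at probes of both transcript records.

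The remaining Cldn10 probes gave smaller differences or none. ILMN_2723576, which shares NM_021386.3 with the brightest probe, read 5.15, 4.98, 5.35, 5.40 and 5.44 in TCL1-AT 1 to 5, against 4.36, 4.15, 4.13, 4.17 and 4.15 in WT 1 to 5. With detection on 5 TCL1-AT arrays and 0 WT arrays, its bound was at least 1.96-fold higher in TCL1-AT. ILMN_2610656, on the older version NM_023878.1, was detected on TCL1-AT 4 alone, at 4.27 ± 0.20 in TCL1-AT and 4.22 ± 0.09 in WT (mean ± SD, n = 5 each), and did not pass the filter. Probes that carry the same transcript record thus ran from 3.29 to 1.07 for NM_021386, and from 2.51 to 0.05 for the versions of NM_023878, where the second probe was at background.

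Cgnl1 moved the other way at 1 of its 3 probes. ILMN_2736038, which the platform lists as 4933421H10Rik and which was named Cgnl1 through its transcript NM_026599.3, read 4.45, 4.34, 4.43, 5.10 and 4.13 in TCL1-AT 1 to 5, against 7.06, 7.70, 6.56, 6.00 and 6.97 in WT 1 to 5. WT 4, the lowest WT value, stood 0.89 above TCL1-AT 4, the highest TCL1-AT value. The means were 4.49 ± 0.36 in TCL1-AT and 6.86 ± 0.63 in WT (mean ± SD, n = 5 each), a log2 difference of -2.37, with detection on 3 TCL1-AT and 5 WT arrays. Its WT values spread more widely than those of any other member probe in either group.

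The other Cgnl1 probes are both on NM_026599.4. ILMN_3003864 read 4.60, 4.49, 4.63, 5.08 and 4.85 in TCL1-AT 1 to 5, against 4.19, 4.85, 4.31, 4.35 and 4.61 in WT 1 to 5. Its groups overlapped, the difference of 0.27 pointed upwards, and it was detected on 5 TCL1-AT and 2 WT arrays. Its signal was close to background in both groups. ILMN_1235904 was detected on no array, which leaves it uninformative, at 4.22 ± 0.07 in TCL1-AT and 4.16 ± 0.05 in WT (mean ± SD, n = 5 each). The lower Cgnl1 signal in TCL1-AT therefore rests on a single probe, whose gene name rests on a transcript record and not on the platform's symbol.

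TCL1-AT 4 lay nearest to WT among TCL1-AT arrays at the brightest probe of each gene: lowest for Whrn at 8.71, lowest for Cldn10 at 6.95 and highest for Cgnl1 at 5.10. Without this array the log2 differences were 4.51 for Whrn ILMN_2476329, 3.45 for Cldn10 ILMN_2515816 and -2.52 for Cgnl1 ILMN_2736038. The same array was also the lowest of its group at Whrn ILMN_3082031, at 6.70. It was not the lowest at Cldn10 ILMN_1214954, where TCL1-AT 2 read 6.34, nor at ILMN_2723576, where TCL1-AT 4 read 5.40.

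Among 3703 named genes with more than 1 tested probe, 30 had a probe at a log2 difference of 2 or more either way, and 8 of these (26.7%) also had a tested probe under 0.5 either way. Probes that did not pass the filter were left out of this count, since a probe at background cannot show a difference, a choice made after the values were seen. Cgnl1, at 2.37 and 0.27 in absolute size, is among the 8. Whrn, whose tested probes spanned 4.46 to 2.80, and Cldn10, at 3.29 to 1.07, are not. The smaller Cgnl1 value comes from ILMN_3003864, with a mean of 4.73 in TCL1-AT and 4.46 in WT. The lowest detected signal per array was 4.26 to 4.32. This probe was thus close to background, and a fall at it could hardly show. Probe sequences were not used here, so the exons that each probe reads are not given.

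**Figure D2:**
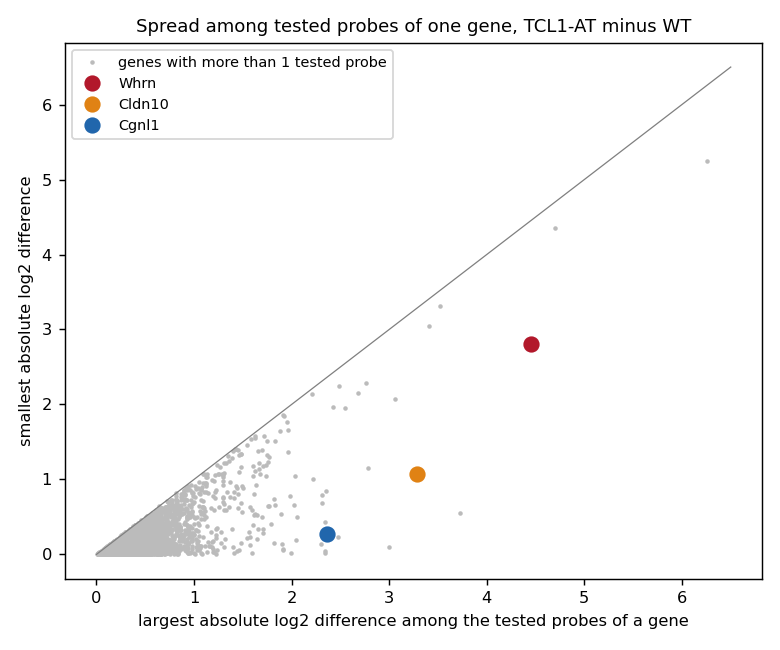
Largest (horizontal axis) against smallest (vertical axis) absolute log2 difference, TCL1-AT minus WT, among the tested probes of each of 3703 genes with more than 1. Whrn lies at 4.46 and 2.80, Cldn10 at 3.29 and 1.07 and Cgnl1, nearest to the horizontal axis, at 2.37 and 0.27.

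The RefSeq promoter windows of the genes (assembly GRCm38.p6, 250 bases before to 50 after the start, 5′ to 3′ on the gene's strand) are shown because Whrn and Cldn10 were higher in the same samples and Cldn10 has a pair of separate starts that could serve its transcripts. The windows are chr4:63495942-63496241 on the minus strand for Whrn, chr14:118787621-118787920 and chr14:118854700-118854999 on the plus strand for Cldn10, and chr9:71771553-71771852 on the minus strand for Cgnl1. Capitals mark matches, on either strand, to the 7 motifs searched.
Whrn window: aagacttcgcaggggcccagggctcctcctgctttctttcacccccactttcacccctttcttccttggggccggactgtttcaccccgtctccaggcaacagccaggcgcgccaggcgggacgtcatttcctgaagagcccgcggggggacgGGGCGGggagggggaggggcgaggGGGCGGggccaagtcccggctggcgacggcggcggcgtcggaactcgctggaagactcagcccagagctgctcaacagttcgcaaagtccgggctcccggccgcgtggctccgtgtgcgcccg
Cldn10 window 1: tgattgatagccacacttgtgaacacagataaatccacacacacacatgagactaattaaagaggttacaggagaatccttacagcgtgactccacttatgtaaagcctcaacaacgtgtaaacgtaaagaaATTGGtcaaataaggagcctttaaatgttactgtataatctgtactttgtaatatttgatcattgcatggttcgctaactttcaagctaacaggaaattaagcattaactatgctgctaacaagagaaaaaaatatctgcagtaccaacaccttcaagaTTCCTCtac
Cldn10 window 2: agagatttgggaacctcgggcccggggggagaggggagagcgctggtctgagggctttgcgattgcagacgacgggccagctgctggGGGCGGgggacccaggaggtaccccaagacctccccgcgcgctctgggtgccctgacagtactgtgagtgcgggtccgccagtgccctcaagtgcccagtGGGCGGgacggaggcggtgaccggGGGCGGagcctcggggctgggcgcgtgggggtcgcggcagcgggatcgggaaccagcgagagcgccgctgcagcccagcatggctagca
Cgnl1 window: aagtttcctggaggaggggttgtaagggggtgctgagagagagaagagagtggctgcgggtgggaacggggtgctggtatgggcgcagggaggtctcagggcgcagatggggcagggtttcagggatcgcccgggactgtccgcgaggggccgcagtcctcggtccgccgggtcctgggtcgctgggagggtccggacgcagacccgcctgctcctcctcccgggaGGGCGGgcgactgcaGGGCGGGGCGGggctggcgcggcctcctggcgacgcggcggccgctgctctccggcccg

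The motifs were the TATA box TATAAA (in 13.6% of 32851 windows), the CCAAT box CCAAT (37.4%), the GC box GGGCGG (35.7%), the AP-1 motif TGANTCA (7.81%), the gamma-activated site TTCNNNGAA (8.3%), the interferon-stimulated response element (3.44%) and the PU.1 core GAGGAA (28.3%). GC boxes occurred 2 times in the Whrn window, 3 times in Cldn10 window 2 and 3 times in the Cgnl1 window, where a pair of them overlap. Cldn10 window 1 held 1 CCAAT box and 1 PU.1 core, both on the reverse strand. The other motifs had no match in these windows. GC boxes were thus present in windows of genes that were higher and of the gene that was lower in TCL1-AT.

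The Cldn10 windows differ in composition. Window 1 is 36.0% G or C and window 2, which starts 67079 bases further along the chromosome, is 72.0%, against a median of 52.7% over all windows, of which 4.64% are poorer in G and C than window 1. The Whrn window is 70.0% and the Cgnl1 window 73.3% G or C. The tables do not tie a window to either transcript that the Cldn10 probes carry.

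The genes with array profiles most like each member were found over the 10 arrays, as the smallest mean absolute difference per array after each probe's mean was subtracted. They follow from the same contrast and are a description. For Whrn they were Acod1, the itaconate-producing enzyme (0.224 per array), Mmp14, a membrane-bound matrix metalloproteinase (0.344), and H2-Eb1, an MHC class II chain (0.372). Acod1 read 8.26 to 8.97 in TCL1-AT and 4.14 to 4.55 in WT, nearly the span of Whrn.

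For Cldn10 the closest were the adhesion molecule gene Pecam1 (0.159 per array), the oxysterol receptor gene Nr1h3 (0.18) and the TNF receptor adaptor gene Traf1 (0.186). Pecam1 read 9.83, 9.52, 9.92, 9.29 and 9.82 in TCL1-AT 1 to 5, against 6.02, 6.27, 6.20, 6.48 and 6.42 in WT 1 to 5, and like Cldn10 was lowest on TCL1-AT 4 within its group. For Cgnl1 they were Mlxipl, a glucose-responsive transcription factor (0.224), Cd93, a C-type lectin-like receptor (0.253), and Trem2, a lipid-sensing receptor (0.269). Mlxipl read 4.10, 4.18, 4.26, 4.75 and 4.28 in TCL1-AT 1 to 5, against 6.70, 6.79, 6.29, 5.18 and 6.88 in WT 1 to 5. Its highest TCL1-AT array was TCL1-AT 4 and its lowest WT array was WT 4, as for Cgnl1.

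**Figure D3:**
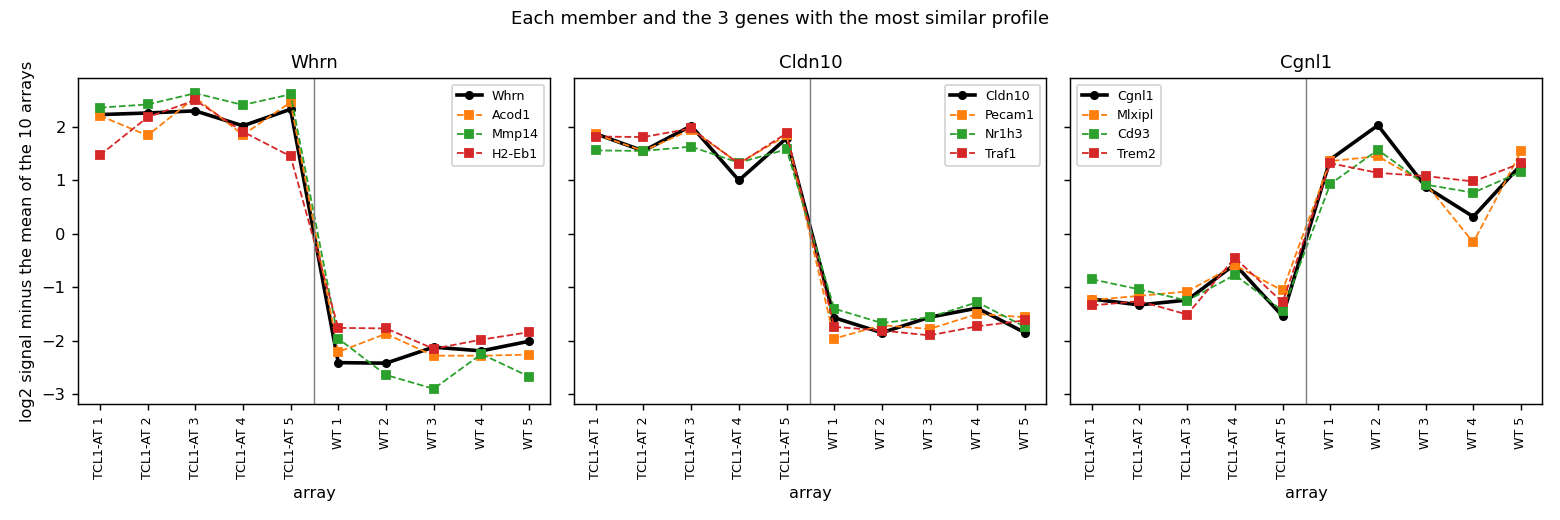
Normalized log2 signal minus its mean over the 10 arrays (vertical axis) by array, TCL1-AT left and WT right of the grey line, for the brightest probe of Whrn, Cldn10 and Cgnl1 (black) and the 3 genes closest to it. The dashed lines run near the black one, with mean distances from 0.159 for Pecam1 to 0.372 for H2-Eb1.

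Genes of junctions, stereocilia and related scaffolds, called junction genes here, were read from 7 lists with 169 genes. Of these, 157 had a probe and 83 were tested. In limma's fit over all tested probes, a gene was called where its brightest tested probe had an adjusted p under 0.05 (Benjamini-Hochberg). Of the 83, 15 were higher (18.1%) and 17 lower (20.5%) in TCL1-AT, and 51 did not pass, beside 12.7% higher and 16.5% lower among all 11506 genes tested. The counts of each single list below are to be read beside these same shares. Their median log2 difference was 0.07, beside 0.01 for all genes.

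Of 6 tested stereocilia and Usher protein genes, which include partners of whirlin, 0 rose and 2 fell, with a median of -0.10. So few genes do not allow a comparison with the shares over all genes, 12.7% higher and 16.5% lower. Myo7a, an unconventional myosin of stereocilia, fell 1.88-fold (log2 difference -0.91, SE 0.12, limma adjusted p = 0.000117). Espn, an actin bundler, fell by 0.73 at its brightest probe, but another of its probes was called at 0.43 and the mean of its probes was not called (-0.10, adjusted p = 0.548). Pdzd7, Ush1c and Ush1g, whose products also build the whirlin and Usher complexes, were detected on no array.

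Of 22 PDZ scaffold genes tested, 4 rose and 6 fell, with a median of -0.006. Il16, a PDZ protein that is cleaved to a cytokine, fell 2.06-fold (log2 difference -1.04), although its other tested probe gave -0.18. The PDZ and LIM domain genes Pdlim2 and Pdlim1 fell 1.91-fold and 1.76-fold, and Cask, a membrane-associated guanylate kinase, fell 1.64-fold. Apba3, an adaptor of the amyloid precursor protein, was 1.48-fold higher.

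Of 7 tested claudin family genes besides Cldn10, 0 rose and 2 fell, with a median of -0.06. These are again too few to compare with the shares over all genes (12.7% and 16.5%). Of the 25 in the list with a probe, 11 were detected on no array. The falls were in Cldnd1 (log2 difference -0.52, SE 0.15, limma adjusted p = 0.0207) and Cldn12 (-0.44, SE 0.13, limma adjusted p = 0.0225), the second detected on 1 TCL1-AT array and 5 WT arrays. Both calls were lost with median raw intensity as a covariate (-0.64 and -0.48, adjusted p = 0.0787 and 0.129) and when 1 of several arrays was left out.

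Among the other tight junction membrane proteins, 2 of 5 tested genes rose and 1 fell, with a median of 0.35. F11r, the junctional adhesion molecule JAM-A that leukocytes also carry, read 7.86, 7.83, 8.19, 7.33 and 8.15 in TCL1-AT 1 to 5, against 5.31, 5.86, 5.37, 5.60 and 5.53 in WT 1 to 5. The groups did not overlap, and F11r was 5.05-fold higher (log2 difference 2.34, SE 0.16, limma adjusted p = 3.05e-07). Tjap1, a tight junction-associated protein gene, rose by 0.48. Lsr, which encodes angulin of tricellular junctions, fell by 0.76 with overlap between the groups, a call lost with the covariate (-0.62, adjusted p = 0.283). Occludin (Ocln), the classical partner of claudins, was detected on no array.

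Of 12 plaque and polarity genes tested, 3 rose and 1 fell, with a median of 0.09. Ybx3, a Y-box factor that binds zonula occludens proteins, was 2.72-fold higher at its brightest probe, but another of its probes was called at -0.96 and the mean of its probes was not called (0.17, adjusted p = 0.137). Tjp3, a zonula occludens protein, and Sympk, symplekin, each rose by 0.44, and Micall2, a Rab effector at junctions, fell by 0.58. The last 3 calls were lost with the covariate (0.46, 0.24 and -0.58, adjusted p = 0.107, 0.443 and 0.0761). Tjp1 was detected on no array.

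Among partners and GTPase regulators that cingulin family proteins bind, 2 of 13 tested genes rose and 2 fell, with a median of 0.08. Arhgef18, a guanine nucleotide exchange factor at junctions, read 8.75, 8.93, 9.01, 9.16 and 8.90 in TCL1-AT 1 to 5, against 10.44, 10.38, 10.29, 10.29 and 10.50 in WT 1 to 5. It fell 2.70-fold, with no overlap (log2 difference -1.43, SE 0.10, limma adjusted p = 3.61e-07). Tiam1, a Rac1 activator that paracingulin recruits, fell by 0.56, while Rock1, a kinase that acts on the actomyosin cytoskeleton, rose by 0.48 and the tetraspanin gene Tspan33 by 0.52. Those 3 calls were lost with the covariate (-0.56, 0.56 and 0.35, adjusted p = 0.0595, 0.0508 and 0.298).

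Of 18 adherens junction genes tested, 4 rose and 3 fell, with a median of 0.08. Lima1, an actin-binding partner of alpha-catenin, was 2.08-fold higher, and Vcl, vinculin, 1.59-fold lower. Cdh1, E-cadherin, rose by 0.62, Ctnnd1, its partner p120-catenin, by 0.40, and Actn1, alpha-actinin, fell by 0.50, and these 3 calls were lost with the covariate (0.57, 0.31 and -0.55, adjusted p = 0.0676, 0.224 and 0.0944). In all, the covariate ended 12 of the 25 calls named from these lists and left 13. Of the 12, 7 had a log2 difference at least as large with the covariate, and the ratio of the difference with it to that without ran from 0.545 to 1.23.

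**Figure D4:**
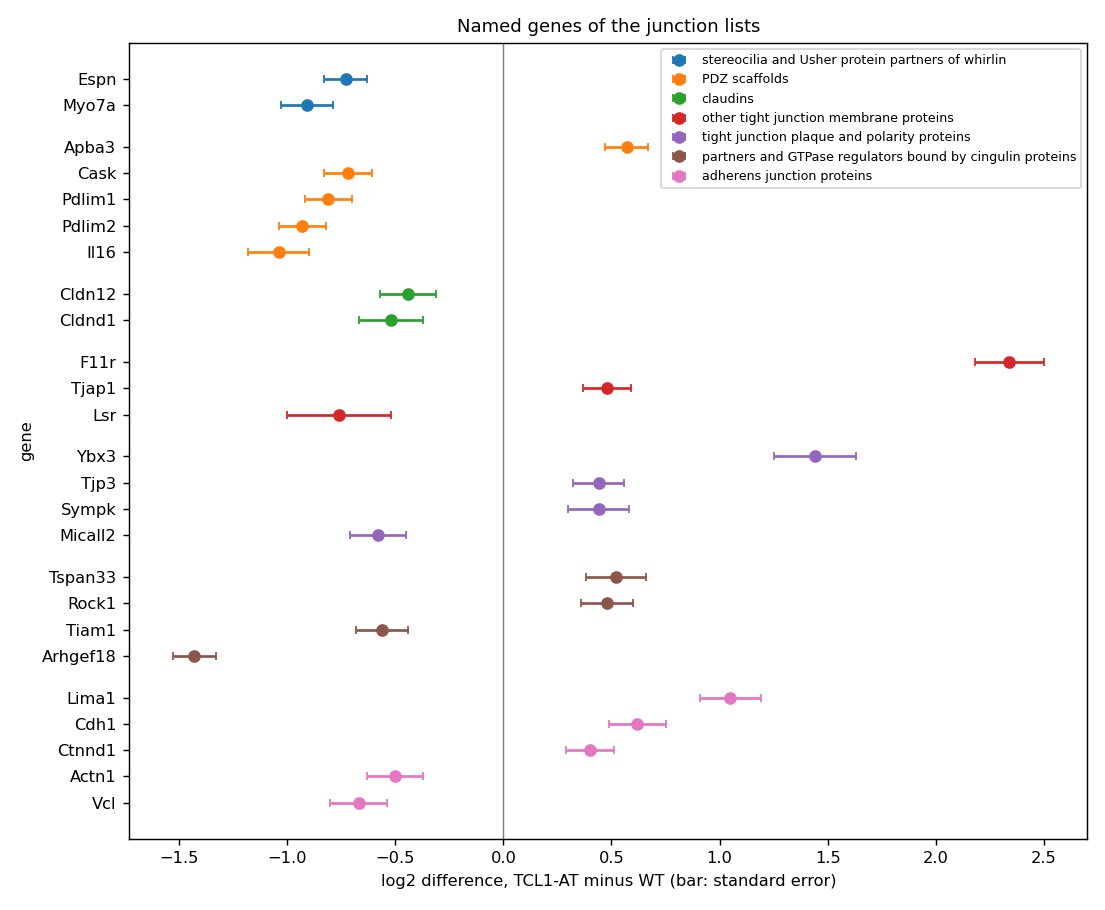
Log2 difference, TCL1-AT minus WT (horizontal axis), of the 25 named genes of the 7 junction lists, coloured by list, with the standard error as a bar (n = 5 each). F11r at 2.34 and Arhgef18 at -1.43 lie farthest from 0 on either side.

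The members' chromosomal neighbours showed 1 call. Of the 12 nearest protein-coding genes with a probe, 2 on each side of each gene in RefSeq, 9 were tested and 1 was called, beside 29.3% of all genes. That gene was Abcc4, an organic anion exporter next to Cldn10, at 8.03 ± 0.15 in TCL1-AT and 8.66 ± 0.31 in WT (mean ± SD, n = 5 each). It fell 1.55-fold, opposite to Cldn10 (limma adjusted p = 0.00522), a call lost with the covariate (-0.66, adjusted p = 0.0643). The other 8 ranged from -0.25 to 0.39, with a smallest adjusted p of 0.0526 for Atp6v1g1, a proton pump subunit gene beside Whrn. Atp6v1g1 stood at 0.37 and was called higher with the covariate (0.70, adjusted p = 0.011) and under several other settings. Sox21 beside Cldn10 (0.39) and Zfp280d beside Cgnl1 (-0.25) also passed under some other settings, in the direction shown. Akna, on the other side of Whrn, differed by 0.09 (limma adjusted p = 0.548).

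Summed signals did not overlap between the groups for 7 of 10 marker lists of other cell types. Counts of called markers stand beside 12.7% higher and 16.5% lower among all genes tested. Basophil, mast cell and eosinophil markers summed to 359 to 844 in TCL1-AT and 119 to 184 in WT, with 3 of 3 tested genes called higher and Siglecf detected on no array. This sum was 507, 361, 359, 363 and 844 in TCL1-AT 1 to 5, where Whrn ILMN_2476329 read 8.91, 8.94, 8.99, 8.71 and 9.01. A relation between them was not tested.

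B cell markers summed to 588 to 1020 in TCL1-AT and 441 to 506 in WT, with 2 of 3 tested called higher, and erythroid and platelet markers to 1070 to 2960 in TCL1-AT and 241 to 824 in WT, with 1 of 3 called higher. T and NK cell markers summed to 171 to 203 in TCL1-AT and 326 to 427 in WT, with 3 of 4 called lower and Cd8a and Ncr1 detected on no array. Epithelial markers, relevant to junction genes, summed to 119 to 150 in TCL1-AT and 104 to 117 in WT, with 1 of 2 tested called higher and Epcam and Krt19 detected on no array. The called gene was Cdh1, whose call was lost with the covariate (limma adjusted p = 0.0676). The sums include the probes at background. Endothelial markers summed to 190 to 201 in TCL1-AT and 161 to 187 in WT, with 2 of 4 called higher and Emcn detected on no array. The part of these cells in the values of Whrn, Cldn10 and Cgnl1 was not tested.

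Monocyte and macrophage markers summed to 54000 to 58700 in TCL1-AT and 45600 to 50200 in WT, with 3 of 9 tested called higher and 2 lower. The median log2 difference of the 9 was -0.19, opposite in direction to the sums, in which bright genes weigh most. Red pulp macrophage markers summed to 2370 to 2740 in TCL1-AT and 1700 to 2270 in WT, with 1 of 4 higher and 1 lower and Cd5l detected on no array. Sums overlapped for neutrophil markers (19800 to 37400 in TCL1-AT and 23200 to 36100 in WT), dendritic cell markers (178 to 276 in TCL1-AT and 162 to 192 in WT) and stromal markers (114 to 139 in TCL1-AT and 92.7 to 120 in WT). In these lists 1 of 4 tested dendritic cell genes and 1 of 3 stromal genes were called higher. The dendritic cell sum was 178 on TCL1-AT 4 and 239 to 276 on the other TCL1-AT arrays, so that TCL1-AT 4 alone gave the overlap.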

How the data were processed

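Total RNA of sorted splenic monocytes was measured on 10 Illumina arrays, 5 of TCL1-AT and 5 of WT mice. The deposited table of raw values gives, per the file headers, an intensity and its detection p-value per probe and array. The deposited series matrix holds log2 values with scale and centring unstated. They differed from neqc of the intensities (normexp with an offset of 16, quantile normalization, log2) by at most 0.000428, with a median of 4.30 on every array. For arrays, their number limits the precision.

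Probes detected (p under 0.05) on at least 5 arrays, 20241 of 46237, were fitted with limma 3.58.1 (R 4.3.3; lmFit, eBayes, 2-sided), adjusted over all of them and called at adjusted p under 0.05. The fit was tested on simulated data. Differences are TCL1-AT minus WT, and folds of dim signals understate the change because of the offset. Of all probes, 35784 had 1 symbol and 10453 were unlisted; symbols were updated through Entrez (28620) or accession (2637) with RefSeq, and 4527 were kept. A gene is its tested probe with the highest mean. Named are all member probes, the called genes of each junction list (up to 5, by lowest p), neighbours, the 3 closest profiles and 5 genes for the sort. The members and lists were chosen with earlier results of these data known. Same-numbered samples correlated between -0.183 and 0.185 in their deviations. Differently numbered samples were not compared, so this check cannot decide whether the numbers pair samples, and no label states a pairing. Alternatives were other filters, normalizations, a covariate, a replicate block, an intensity trend, probe averaging and leaving out each array.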

Additional observations from a re-analysis of the deposited data

Results flagged for a closer look

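In 13 of 122 groups of 5 arrays, 1 value stood apart, its gap to the nearest other exceeding 0.71 of the group's range, where chance flags about 1 in 20 groups. Among member probes, Cldn10 ILMN_2723576 read 4.36 on WT 1, against 4.13 to 4.17 on the other WT arrays, all below detection. The Whrn synonym probe C430046P22Rik (ILMN_1225440) read 4.19 on WT 2, against 4.07 to 4.08, also undetected. TCL1-AT 4 accounted for 5 of the 13: Nr1h3 at 10.73 and Traf1 at 9.71 were low there, and Mlxipl at 4.75, Trem2 at 7.52 and Cd68 at 11.99 were high. Nr1h3, Traf1, Mlxipl and Trem2 were named because their profiles follow Cldn10 or Cgnl1. Cldn10 and Cgnl1 are themselves extreme on TCL1-AT 4 within their group (6.95 and 5.10). Such a choice favours genes that stand apart on this array, so the chance rate does not apply to those named by it. Why TCL1-AT 4 stood apart was not tested. Cd68 is a gene of the sort check.

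TCL1-AT 1 stood apart for Rock1 at 7.51 and Actn1 at 6.56, TCL1-AT 2 for Csf1r at 11.83 and TCL1-AT 5 for Zfp280d at 5.93. WT 2 stood apart for Micall2 at 4.65 and Acod1 at 4.55.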

How the results depend on the processing

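Every member probe kept its direction under each alternative run, except Cldn10 ILMN_2610656, which is at background and ran from -0.03 (without TCL1-AT 4) to 0.09 as arrays were left out. Without background correction the log2 differences were smaller: 2.59 and 1.24 for Whrn ILMN_2476329 and ILMN_3082031, 1.60, 1.04 and 0.35 for Cldn10 ILMN_2515816, ILMN_1214954 and ILMN_2723576, and -1.04 for Cgnl1 ILMN_2736038. The fold bounds given for these probes therefore hold for the background-corrected values only. With median raw intensity as a covariate, Cgnl1 ILMN_1235904, also at background, gave 0.12. Leaving out each array gave 4.41 to 4.51 and 2.75 to 2.86 for Whrn, 3.20 to 3.45, 2.43 to 2.60 and 1.03 to 1.14 for Cldn10, and -2.58 to -2.15, 0.18 to 0.37 and 0.04 to 0.08 for Cgnl1. The Whrn synonym probe gave 0.09 to 0.13.

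Counts depended more on the setting. Probes called higher numbered 2458, or 1419 with median scaling and 1102 with the covariate, and probes called lower 3005, or 1340 with the covariate. The covariate left 6 junction genes higher and 9 lower. Leaving out each array gave 1949 to 2701 probes higher and 2423 to 3054 lower, and 12 to 17 junction genes higher and 14 to 17 lower. Neighbours called numbered 2 with no filter, detection p under 0.01, an intensity trend or the mean of a gene's probes, 3 with detection on all 10 arrays or no background correction, and 1 to 3 with an array left out. They were 2 without TCL1-AT 1 or WT 5 and 3 without WT 3. The genes gained were Atp6v1g1, Sox21 and Zfp280d, each under some of these settings, and Atp6v1g1 was also gained (0.70, adjusted p = 0.011) with the covariate, under which Abcc4 was lost. Differences that were not called changed sign for Itgam (0.12) and Akna (-0.04) with the covariate and for Dnajc3 with median scaling (-0.02) or without TCL1-AT 1 (-0.0034) or TCL1-AT 4 (-0.00016; range with an array left out -0.0034 to 0.10). The cause was not tested. Of 38 named genes called, 17 lost the call under some other setting and 6 when 1 array was left out: Cldnd1, Cldn12, Lsr, Sympk, Itgax and Cd68. The 38 include the genes named because their profiles are closest to a member. Those were picked on this same contrast, so their calls say nothing about how stable calls are.

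The replicate block, run although no label states a pairing, gave 2035 probes higher and 2567 lower, 13 junction genes higher and 17 lower and 2 neighbours called. A slide block was not run, since no slide is named.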
